A study of Mus musculus with 4 samples.

Results

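The transcription factors of the primitive streak described here are 10 genes, *T*, *Mixl1*, *Eomes*, *Gsc*, *Lhx1*, *Foxa2*, *Evx1*, *Mesp1*, *Mesp2* and *Tbx6*, of 16358 genes on the arrays. They were chosen by name, with earlier results of these data known. Each took all probe sets whose annotation gives its symbol alone. This gave 81 of 229581 probe sets, and no probe set listed a member among several symbols. A probe set reads a stretch of an exon, and the value of a gene is the median over its probe sets. The members had between 5 and 13 probe sets each.

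The 4 arrays hold RNA of *Mst-/-* EBs at day 8, wild type EBs at day 8, *Mst-/-* EBs at day 4 and wild type EBs at day 4, with 1 array per genotype and day, on mouse exon 1.0 ST chips from Affymetrix. Embryoid bodies (EBs) are floating aggregates in which embryonic stem (ES) cells leave pluripotency. All EBs came from ES cells kept in 2i and LIF, which hold cells in the pluripotent state, and were grown as floating cultures after both were withdrawn. *Mst-/-* cells lack exons of the kinase domains of Mst1 and Mst2, the Hippo kinases of mammals, and came from blastocysts of a cross of *Mst1*+/-, *Mst2*-/- mice. The study derived more than 1 such line, and the line on the arrays is not named, so a difference between cell lines cannot be told apart from the deletion. With no replicate there is no test. Errors of differences are SDs of the differences of a gene's single probe sets. They show scatter between probe sets, which read different stretches, inside the same arrays and not biological spread. The difference itself is between 2 medians, so it need not be the centre of the probe set differences.

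Signals are on the log2 scale, so a difference of 1 is a 2-fold change, and a difference counts as higher or lower here when it passed 1.5-fold, the threshold of the study's methods. The background of an array was set at the 95th percentile of its 1013 genes of olfactory and vomeronasal receptors, and lay between 6.91 and 7.03 on the 4 arrays. Of the receptor genes, 12.1% to 18.8% passed 1.5-fold in the comparisons used here. A gene was compared where at least 1 of its arrays was above background. The labels of the day 8 *Mst-/-* array disagree, since its description gives day 4 but its title and cell type give day 8. *Ttr*, which encodes a transport protein made by visceral endoderm, was at 12.30 on that array, against 7.91 on the day 4 *Mst-/-* array, and at 12.53 in wild type EBs at day 8, against 7.51 at day 4. The array was taken as day 8, and the comparisons without it are those of wild type EBs over time and of the genotypes at day 4. The deletion of Mst1 could be seen in its gene, *Stk4*, where 2 of 13 probe sets lay between 3.83 and 4.80 on the *Mst-/-* arrays, against 11.42 to 12.03 on the wild type arrays. The gene of Mst2, *Stk3*, had no probe set annotated with its symbol alone, so the deletion of Mst2 could not be checked here.

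In the gastrulating mouse embryo, epiblast cells under Nodal, Wnt and BMP signals gather in the primitive streak, switch on the T-box factors T (Brachyury) and Eomes and the homeobox factor Mixl1, and leave it as mesoderm or definitive endoderm. The anterior end of the streak, which gives endoderm, node and axial mesoderm, uses Gsc, Lhx1 and Foxa2, and the posterior end uses Evx1. Cells that leave as mesoderm switch on Mesp1 on the way to heart and blood, and Tbx6 and Mesp2 on the way to somites. EBs pass through a similar sequence without the shape of an embryo.

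*T* and *Mesp1* stand at the start and at the exit of this sequence, and their promoters are shown because the words read by the signals and factors above can be seen in them. The sequences are the 250 bases before the start of each gene in RefSeq GRCm38.p6, 5′ to 3′ on the strand of the gene, at chr17:8434173-8434422 (plus strand) for *T* and chr7:79793591-79793840 (minus strand) for *Mesp1*. Capitals mark, on either strand, the words that Lef/Tcf factors of Wnt signalling read, in the form CTTTGAT, in the form CTTTGTT with a different end, or in the form CTTTGAA. They also mark the core of the T-box site, AGGTGT.
T: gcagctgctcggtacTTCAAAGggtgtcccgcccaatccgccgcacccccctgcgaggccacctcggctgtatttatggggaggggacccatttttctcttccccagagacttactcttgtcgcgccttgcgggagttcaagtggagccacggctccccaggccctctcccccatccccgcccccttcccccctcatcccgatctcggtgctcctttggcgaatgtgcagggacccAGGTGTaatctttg
Mesp1: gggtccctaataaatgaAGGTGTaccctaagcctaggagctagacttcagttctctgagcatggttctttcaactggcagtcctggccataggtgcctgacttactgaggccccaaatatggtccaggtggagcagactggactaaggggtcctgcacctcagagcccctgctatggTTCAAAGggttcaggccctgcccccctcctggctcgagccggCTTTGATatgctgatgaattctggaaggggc
The *T* promoter held a Lef/Tcf word at bases -235 to -229, with -1 the base before the start, and the T-box core at -14 to -9. The *Mesp1* promoter held Lef/Tcf words at -73 to -67 and -31 to -25 and the T-box core at -233 to -228. Windows of 250 bases before and 50 after a start were searched for 9 members, all but *Mixl1*. A gene can have several windows, as *Foxa2* has, and it counts here when any of them holds a match. Counts of members and shares of windows are therefore unlike measures. A Lef/Tcf word was in those of 3 members (*Foxa2*, *Mesp1* and *T*) and in 13.9% of all 32851 windows, and the T-box core was in those of 4 (*Evx1*, *Mesp1*, *Mesp2* and *T*) and in 13.7%. A FoxH1 word (AATCCACA or AATACACA), read by the partner of Smad2 in Nodal signalling, was in the window of *Mesp2* alone, after the start, where it overlaps a T-box core, and in 1.82% of all. The Smad palindrome GTCTAGAC was in none of the members and in 0.213% of all, and TATAAA was in those of *Foxa2*, *Gsc* and *Tbx6* and in 13.6%. A match is a run of letters and was not tested for binding.

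The patterns of the members followed their roles in part. At day 8 *T*, *Mixl1*, *Eomes*, *Gsc*, *Lhx1* and *Foxa2* had more signal in *Mst-/-* EBs than the wild type array had, by 1.65-fold for *Foxa2* up to at least 5.70-fold for *Lhx1*. At day 4 *Mesp1*, *Mesp2* and *Tbx6* were 3.03- to 6.19-fold lower in *Mst-/-* EBs, together with *Lhx1*, *Evx1*, *Mixl1* and *T*. In EBs, as in any mixed sample, fewer cells of a type and less RNA per cell cannot be told apart.

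**Figure D1:**
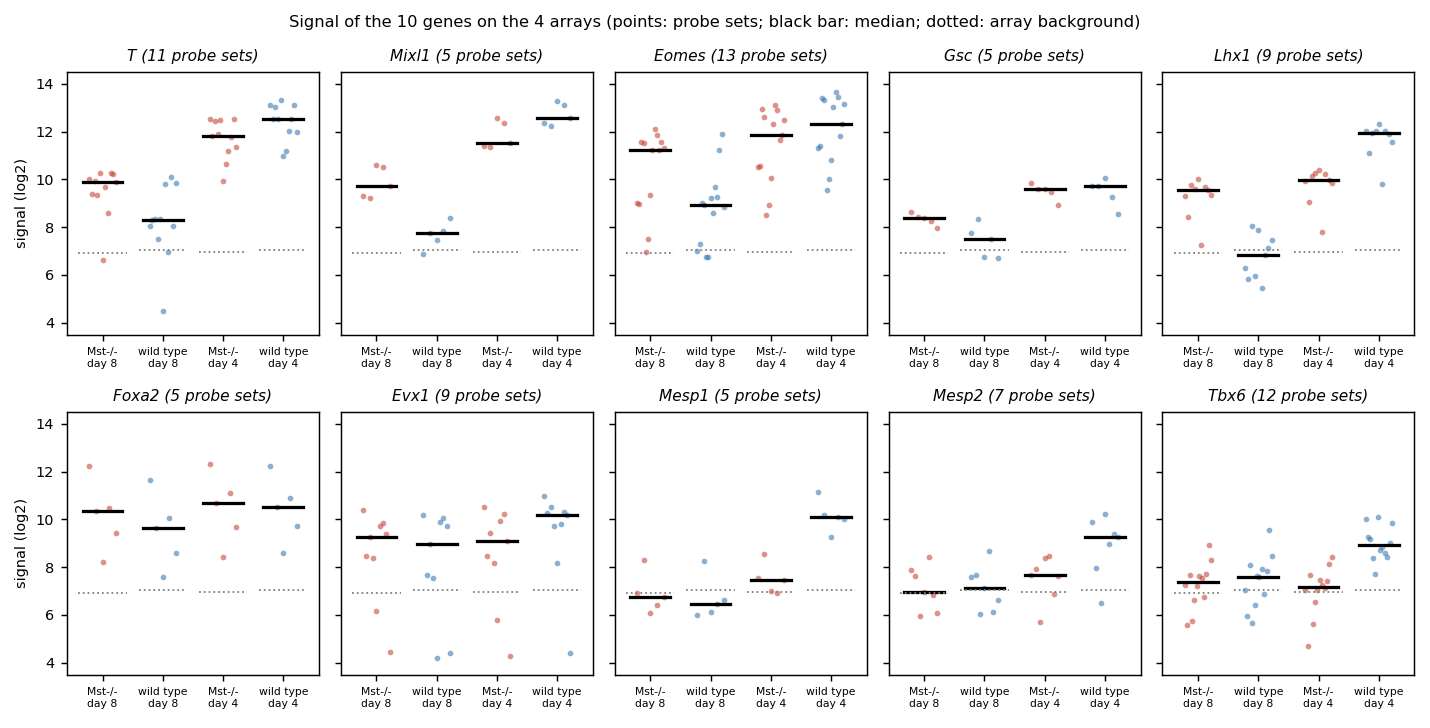
Signal of each gene on the 4 arrays (log2, y axis), with *Mst-/-* EBs in red and wild type EBs in blue. Points are probe sets, the black bar is their median and the dotted line is the background of the array, near 7 on all 4. For *T*, *Mixl1*, *Eomes* and *Lhx1* the day 8 bar is higher in *Mst-/-* EBs, while for *Mesp1*, *Mesp2* and *Tbx6* the wild type array of day 4 stands above the other 3.

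*T*, the T-box factor that names the Brachyury mutant and is needed for posterior mesoderm and notochord, was at 9.91 in *Mst-/-* EBs and 8.31 in wild type EBs at day 8. On the day 4 arrays it was at 11.83 in *Mst-/-* EBs and 12.52 in wild type EBs. Its order was thus wild type day 4, *Mst-/-* day 4, *Mst-/-* day 8 and wild type day 8, from the highest down. The difference at day 8 was 1.60 ± 0.87 (SD over 11 probe sets), a 3.03-fold higher signal in *Mst-/-* EBs. The day 4 difference was -0.69 ± 0.15, and all 11 probe sets were lower in *Mst-/-* EBs. Unlike the rest, 3 probe sets were bright in wild type EBs at day 8 (9.80 to 10.09) and differed there by -0.10, 0.08 and 0.17, whereas the 8 others were all higher in *Mst-/-* EBs by more than 1.5-fold. The brightest probe set of *T* is that with 0.17, so the call at day 8 rests on the others.

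*Mixl1*, a homeobox factor of the streak needed to form endoderm, was at 9.72 in *Mst-/-* EBs and 7.74 in wild type EBs at day 8, and at 11.52 and 12.57 in *Mst-/-* and wild type EBs at day 4. It had the same order over the arrays as *T*. All 5 probe sets were higher in *Mst-/-* EBs at day 8, with 1.98 ± 0.78 (SD, 3.94-fold), and all 5 were lower at day 4, with -1.05 ± 0.14 (2.07-fold). At day 4 the probe sets of *Mixl1* ran from -1.05 to -0.72, so the difference of medians lay at their edge. The mean over probe sets gave -0.86. *Eomes*, a T-box factor needed for cells to leave the epiblast and for endoderm, was at 11.22 in *Mst-/-* EBs and 8.91 in wild type EBs at day 8, a difference of 2.31 ± 1.18 (SD over 13 probe sets, 4.96-fold). Of its probe sets 9 were higher by over 1.5-fold, and the lowest had -0.32. At day 4 it was at 11.85 in *Mst-/-* EBs and 12.32 in wild type EBs, and its -0.47 ± 0.25 lay within 1.5-fold although all 13 probe sets were lower and 8 of them past it. With the mean over probe sets in place of the median *Eomes* had -0.68 and would count as lower at day 4.

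*Lhx1*, a LIM homeobox factor of the anterior streak and the node, gave the largest day 8 difference among the members. It was at 9.54 in *Mst-/-* EBs at day 8, against 6.85 in wild type EBs, which is below background, so the genotypes differed by at least 5.70-fold. All 9 probe sets were higher there, by 1.74 to 3.61. Day 4 signals were 9.98 in *Mst-/-* EBs and 11.95 in wild type EBs, a difference of -1.97 ± 0.13 (SD) and every probe set between -2.12 and -1.72. Signals of *Lhx1* on the 2 *Mst-/-* arrays thus lay between those on the wild type arrays.

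*Gsc* and *Foxa2* changed less. *Gsc*, a homeobox repressor of the organizer, was at 8.39 in *Mst-/-* EBs and 7.52 in wild type EBs at day 8, with 0.87 ± 0.58 (SD over 5 probe sets, 1.83-fold) and 4 probe sets past 1.5-fold. Its brightest probe set had 0.09. Its day 4 signals were 9.59 in *Mst-/-* EBs and 9.71 in wild type EBs, and the -0.12 ± 0.32 between them is smaller than its spread. *Foxa2*, a forkhead factor of endoderm and notochord, was at 10.36 in *Mst-/-* EBs and 9.64 in wild type EBs at day 8, with 0.72 ± 0.14 (5 probe sets, all higher, 3 of them past 1.5-fold). The day 4 signals were 10.69 in *Mst-/-* EBs and 10.51 in wild type EBs, a difference of 0.18 ± 0.16 within 1.5-fold. *Foxa2* is also a gene of visceral endoderm, whose markers are given with the other marker lists.

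*Evx1*, the even-skipped homologue of the posterior streak, was at 9.27 in *Mst-/-* EBs and 8.95 in wild type EBs at day 8, a difference of 0.32 ± 0.72 (SD over 9 probe sets) within 1.5-fold. It was 2.16-fold lower in *Mst-/-* EBs at day 4, at 9.08 against 10.19 in wild type EBs, with -1.11 ± 0.87. Its probe sets did not move together. Of the 9, 4 had a range below 1 over the 4 arrays, and 3 of those were bright while 1 was between 4.26 and 4.46, so that the median of *Evx1* mixes probe sets that changed with others that did not. The probe set with the widest range was at 6.15 in *Mst-/-* EBs and 4.19 in wild type EBs at day 8, and at 5.80 and 8.19 in *Mst-/-* and wild type EBs at day 4.

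*Mesp1*, a basic helix-loop-helix factor at the head of the cardiac lineage, was at 6.75 in *Mst-/-* EBs and 6.47 in wild type EBs at day 8, both below background, so it was not compared there. At day 4 it was at 7.47 in *Mst-/-* EBs and 10.10 in wild type EBs. The difference of -2.63 ± 0.78 (SD over 5 probe sets, 6.19-fold) was the largest of the members at day 4, and all 5 probe sets were lower by 1.62 or more. *Mesp2*, its neighbour on chromosome 7 and a factor of somite borders, was at 7.65 in *Mst-/-* EBs and 9.25 in wild type EBs at day 4, with -1.60 ± 0.93 (7 probe sets, 3.03-fold). At day 8 it was at 6.94 in *Mst-/-* EBs and 7.13 in wild type EBs, each at the edge of background. The brightest probe set of *Mesp2* had -0.51 at day 4, and 5 of the other 6 passed 1.5-fold.

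*Tbx6*, a T-box factor that turns progenitors towards presomitic mesoderm and away from neural tissue, was at 7.38 in *Mst-/-* EBs and 7.60 in wild type EBs at day 8, a difference of -0.22 ± 0.27 (SD over 12 probe sets). At day 4 it was at 7.18 in *Mst-/-* EBs and 8.93 in wild type EBs, with -1.75 ± 1.12 (3.36-fold). All 12 probe sets were past 1.5-fold lower at day 4, from -4.57 to -0.86. For *Mesp1*, *Mesp2* and *Tbx6* alike the wild type array of day 4 was high and the other 3 arrays lay within 1 log2 unit of background.

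**Figure D2:**
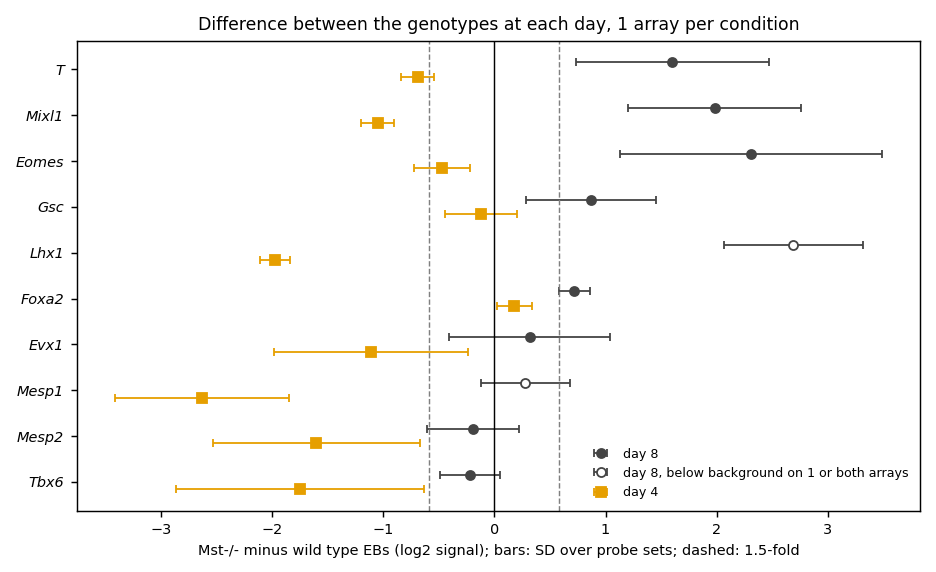
Difference of *Mst-/-* minus wild type EBs (log2 signal, x axis) for each gene at day 8 (circles) and day 4 (squares), with bars for the SD over probe sets and dashed lines at 1.5-fold; open circles are *Mesp1*, below background on both day 8 arrays, and *Lhx1*, below it on the wild type array, whose value is at least 5.70-fold. The 6 genes from *T* to *Foxa2* lie right of the upper line at day 8, and 7 of the 10 lie left of the lower line at day 4.

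Counted over the members, 6 of the 9 compared at day 8 were higher in *Mst-/-* EBs, none was lower and 3 lay within 1.5-fold. Of all 12171 genes compared at day 8, 8.42% were higher and 8.22% were lower. The median over the members was 0.87, and over all genes 0.05. At the 99th percentile background the members' median was 1.60 over 7 members, since *Mesp2* (-0.19) and *Tbx6* (-0.22) were no longer compared. *Mixl1*, *Gsc* and *Lhx1* passed that filter through the *Mst-/-* array alone. No median over all genes is given at that filter, so 1.60 cannot be set beside 0.87 as a larger difference. At day 4, 7 of 10 members were lower in *Mst-/-* EBs, none was higher and 3 lay within 1.5-fold, with a median of -1.08 against 0.01 over all genes. Of all 11943 genes compared at day 4, 10.3% were higher and 8.52% were lower. When each gene was read from its brightest probe set alone, 3 members were higher and 1 was lower at day 8, with a median of 0.19. The shares over all genes above are for gene medians, and none is given for this reading. The genes that no longer counted as higher were *T*, *Gsc* and *Foxa2*, with 0.17, 0.09 and 0.58, and the lower gene was *Tbx6*, with -0.61. The same reading gave 5 of 10 members lower at day 4, without *Evx1* (-0.45) and *Mesp2* (-0.51), and a median of -0.64.

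**Figure D3:**
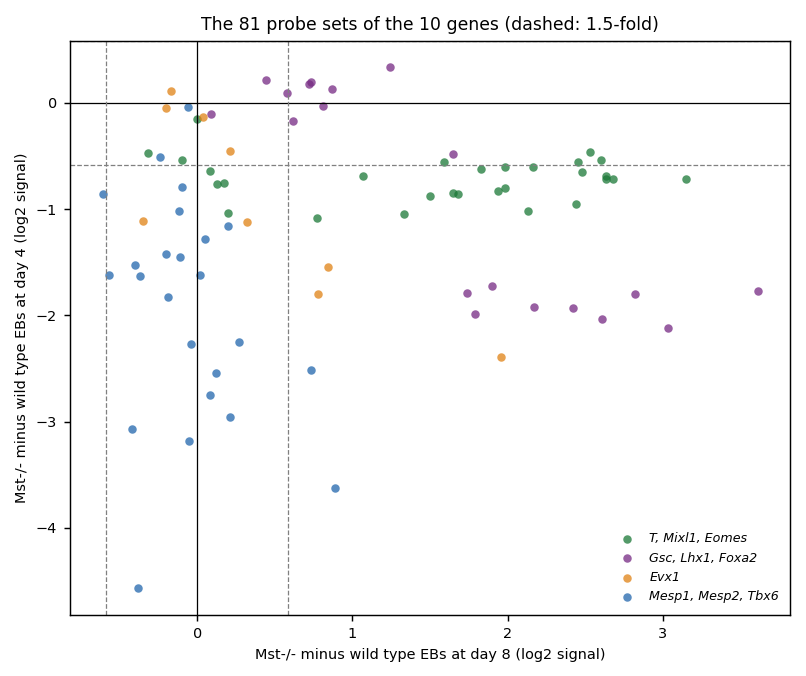
Difference of *Mst-/-* minus wild type EBs for each of the 81 probe sets at day 8 (x axis) and day 4 (y axis), both as log2 signal, coloured by the role of the gene, with dashed lines at 1.5-fold. At day 8, 43 probe sets are past the line on the side of *Mst-/-* EBs and 1 on the side of wild type EBs. At day 4 none is past it on the side of *Mst-/-* EBs and 58 are on the side of wild type EBs. Probe sets of a gene were read on the same arrays and are not replicates, and no share over all 229581 probe sets is given.

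Over time, all 10 members were lower at day 8 than at day 4 in wild type EBs. *Mixl1* was at 7.74 at day 8 and 12.57 at day 4, a change of -4.83 ± 0.69 (SD over 5 probe sets, 28.4-fold). *Lhx1* was at least 30.3-fold lower at day 8, *T* 18.5-fold (-4.21 ± 1.55), *Eomes* 10.6-fold (-3.41 ± 1.48) and *Mesp1* at least 8.40-fold. These 5 had the largest changes. *Gsc* (-2.19 ± 0.75), *Mesp2* (-2.12 ± 1.37), *Tbx6* (-1.33 ± 1.10), *Evx1* (-1.24 ± 1.39) and *Foxa2* (-0.87 ± 0.20) followed, and for *Evx1* the change was smaller than its spread. The brightest probe sets gave 7 of 10 members lower, with *Foxa2* at -0.58, *Mesp2* at -0.29 and *Tbx6* at 0.55, and the members' median of -2.80 became -1.63. Of all 12084 genes compared by their medians, 12.7% were lower at day 8 and 16.7% were higher, and no share is given for the brightest probe sets.

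In *Mst-/-* EBs 6 of the 10 were lower at day 8 than at day 4 and none was higher, where 7.48% of all 12134 genes were lower and 13.3% were higher. *T* and *Mixl1* had -1.92 ± 0.66 and -1.80 ± 0.13, *Gsc* had -1.20 ± 0.11 and *Eomes* had -0.63 ± 0.42. Of the 13 *Eomes* probe sets, 2 had a range below 1 over the 4 arrays and 11 passed 1.5-fold downward. With the mean over probe sets *Eomes* had -1.10. *Mixl1*, whose probe sets lay between -2.12 and -1.80, had -1.97 with that mean. The other members that passed by their measured signals were *Mesp1*, with -0.72 ± 0.25, and *Mesp2*, with -0.71 ± 0.77, which is within its spread. *Mesp1* was below background at day 8. With background in place of that signal it was 1.47-fold lower or more, which does not secure 1.5-fold. With values raised to background 5 members counted as lower, and no share of all genes is given for that setting. *Lhx1* (-0.44 ± 0.11), *Foxa2* (-0.33 ± 0.20), *Evx1* (0.19 ± 0.25) and *Tbx6* (0.21 ± 0.35) stayed within 1.5-fold between the days. At a threshold of 2-fold, 3 members were lower by their medians at day 8 in *Mst-/-* EBs, which were *T*, *Mixl1* and *Gsc*. No share of all genes is given at that threshold.

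**Figure D4:**
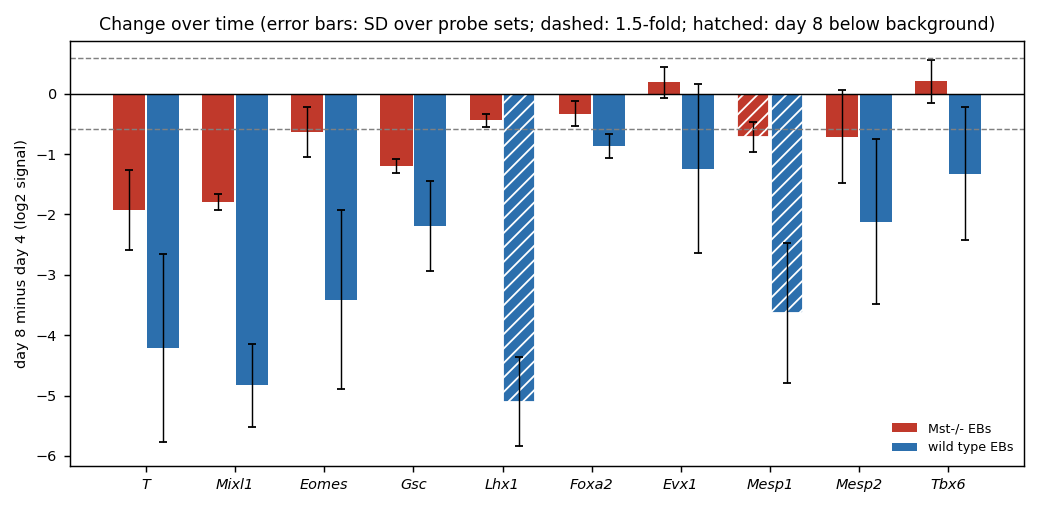
Change of day 8 minus day 4 (log2 signal, y axis) of each gene in *Mst-/-* EBs (red) and wild type EBs (blue), with error bars for the SD over probe sets and dashed lines at 1.5-fold. Hatched bars (*Lhx1* in wild type EBs, *Mesp1* in both) are drawn at the measured signals although day 8 was below background, and the wild type bar reaches below the *Mst-/-* bar for all 10 genes.

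The difference between these changes, *Mst-/-* minus wild type, was above 0 for all 10 members and past 1.5-fold for 9, where 10.1% of all 12519 genes were past it in that direction and 11.5% in the other. For *Lhx1*, whose wild type signal at day 8 was below background, it was at least 4.48. It was 3.03 ± 0.67 for *Mixl1* (SD over 5 probe sets), 2.78 ± 1.20 for *Eomes* and 2.29 ± 0.93 for *T*. *Tbx6* had 1.53 ± 1.14, *Evx1* 1.43 ± 1.53, *Mesp2* 1.41 ± 1.20, *Gsc* 0.99 ± 0.74 and *Foxa2* 0.54 ± 0.25. From *Mixl1* down, neighbours in this order differed by less than the larger of their SDs. *Lhx1* stood above *Mixl1* by more than the SD of either. *Mesp1*, below background on both day 8 arrays, had 2.91 from the measured signals and 2.51 with background in their place, and has no rank among them. The same number arose in different ways. For *Eomes*, *Gsc* and *Foxa2* most of it was the day 8 gap between the genotypes, for *Mesp1*, *Mesp2*, *Tbx6* and *Evx1* it was mostly the day 4 gap, and *Lhx1*, *Mixl1* and *T* had both with opposite signs. The median was 1.91, and 0.04 over all genes. With the brightest probe sets the members' median was 0.79.

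Likeness of profiles was measured as the root mean square distance between 2 genes' signals on the 4 arrays, each centred on its own mean, over 11882 genes. It describes 4 arrays only. *T* and *Mixl1* were nearest to each other, at 0.22, and *Rxrg* (0.41) and *Fgf5* (0.44), a growth factor of the epiblast, came next for *T*. The genes nearest to *Eomes* were *Trh* (0.19), *Cer1* (0.30), which encodes a secreted inhibitor of Nodal, and *Tdgf1* (0.32), which encodes a co-receptor of Nodal. *Cer1* was also nearest to *Lhx1* (0.40), followed by *Mixl1* (0.49) and *Cyp26a1* (0.51), an enzyme that breaks down retinoic acid. *Cyp4f15* (0.19), *Dll3* (0.50), a Notch ligand of presomitic mesoderm, and *Stmn2* (0.51) were nearest to *Mesp1*. For *Tbx6* they were *Dpyd* (0.12), *Rftn1* and *Car14* (0.14 each), and for *Mesp2* *Nxph4* (0.08), *Fabp7* (0.11) and *Pgr* (0.18). *Gsc* lay near *Upp1* (0.14), *Fst* and *Dab1* (0.15 each). *Evx1* lay near *Slc4a4* (0.07), *Sema7a* and *Smad1* (0.08 each), and *Foxa2*, which varied little, near *Orc5* (0.01), *Fancb* (0.02) and *Sgf29* (0.03).

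The signals that induce the streak moved in both directions. Of 24 genes of Nodal, Wnt, BMP and FGF signalling, 6 passed 1.5-fold upward and 1 downward in *Mst-/-* EBs at day 8. On day 4 the counts were 2 upward and 6 downward. The medians were 0.14 at day 8 and -0.30 at day 4. *Nodal* was at 9.49 in *Mst-/-* EBs and 8.15 in wild type EBs at day 8 (1.33 ± 0.68, SD over 6 probe sets), and at 10.94 and 9.36 in *Mst-/-* and wild type EBs at day 4 (1.58 ± 0.72). *Wnt3*, the Wnt ligand of the early streak, had 1.14 ± 0.49 at day 8 and -0.78 ± 0.33 at day 4, and thus changed sign as *T* did. *Tdgf1* had 1.62 ± 0.31 at day 8 and 0.00 ± 0.09 at day 4. *Bmp4* had -0.02 ± 0.08 at day 8 and -1.07 ± 0.61 at day 4, with a signal of 8.90 in *Mst-/-* EBs and 9.97 in wild type EBs.

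Of the inhibitors of these signals, 4 of 10 were higher and 2 were lower in *Mst-/-* EBs at day 8, against 3 and 4 of 10 at day 4. *Cer1* was at 9.93 in *Mst-/-* EBs and 7.68 in wild type EBs at day 8 (2.25 ± 0.45, SD over 4 probe sets), and at 10.37 and 11.65 in *Mst-/-* and wild type EBs at day 4 (-1.28 ± 0.15). *Dkk1*, an inhibitor of Wnt, had 0.73 ± 0.16 at day 8 and -2.15 ± 0.21 at day 4. *Lefty1*, a target and inhibitor of Nodal, was higher on both days, with 1.59 ± 0.35 at day 8 and 1.51 ± 0.84 at day 4.

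Genes of nascent and presomitic mesoderm were mostly lower in *Mst-/-* EBs at day 4, with 13 of 20 past 1.5-fold, 3 past it the other way and a median of -1.20. The day 8 counts were 3 lower and 2 higher of 19 (median 0.14). *Kdr*, the VEGF receptor of blood and heart progenitors, was at 7.11 in *Mst-/-* EBs and 11.22 in wild type EBs at day 4 (-4.11 ± 0.82, SD over 33 probe sets), and *Pdgfra*, a receptor of paraxial mesoderm, had -3.08 ± 0.88. At day 8 they had -1.13 ± 0.19 and -1.07 ± 0.14. *Snai1*, a repressor of E-cadherin in cells that leave the epiblast, had 0.14 ± 0.33 at day 8 and -1.72 ± 0.19 at day 4. *Msgn1*, a presomitic factor with 1 probe set, was at 7.09 in *Mst-/-* EBs and 9.57 in wild type EBs at day 4, and below background on both arrays at day 8.

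Of genes of heart and blood that act after *Mesp1*, 10 of 14 passed 1.5-fold downward in *Mst-/-* EBs at day 4 and the other 4 lay within it (median -1.02). At day 8, 5 of 17 were lower and 1 was higher, with a median of -0.45. *Etv2*, a factor of blood and endothelium, was at 8.86 in *Mst-/-* EBs and 11.43 in wild type EBs at day 4 (-2.57 ± 0.57), and had 0.25 ± 0.14 at day 8. *Isl1*, a factor of heart progenitors, had -0.13 ± 0.24 at day 8 and -1.71 ± 0.91 at day 4. *Tbx5*, a T-box factor of the heart, was at 6.38 in *Mst-/-* EBs at day 8, below background, against 8.66 in wild type EBs, and so was at least 3.37-fold lower. *Nkx2-5* had -0.45 ± 0.42 at day 8 and -0.62 ± 0.65 at day 4, and both lay near its spread.

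Definitive endoderm, node and notochord genes had medians of opposite sign on the days, 0.65 at day 8 and -0.82 at day 4. Over 1.5-fold higher in *Mst-/-* EBs were 5 of the 10 at day 8, when 1 was lower, and 1 of the 10 at day 4, when 6 were lower. *Sox17*, a factor of endoderm, was at 10.00 in *Mst-/-* EBs and 9.05 in wild type EBs at day 8 (0.95 ± 0.34, SD over 11 probe sets), and at 7.92 and 10.01 in *Mst-/-* and wild type EBs at day 4 (-2.09 ± 1.01). *Cxcr4*, a chemokine receptor of definitive endoderm, had 1.05 ± 0.29 at day 8 and -2.84 ± 1.35 at day 4. *Shh*, the notochord signal, was lower on both days, with -1.12 ± 0.50 at day 8 and -1.03 ± 1.31 at day 4. The day 4 difference of *Shh* was smaller than its spread, and 4 of its 7 probe sets passed 1.5-fold there.

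Other T-box genes lay on both sides of 0. Of 10 compared at day 8, 2 were higher and 3 lower in *Mst-/-* EBs, and of 9 at day 4, 1 was higher and 3 were lower. *Tbx3*, a factor of pluripotent cells and later of mesoderm and endoderm, was at 10.63 in *Mst-/-* EBs and 9.65 in wild type EBs at day 8 (0.98 ± 0.65, SD over 19 probe sets) and at 8.66 and 10.58 in *Mst-/-* and wild type EBs at day 4 (-1.92 ± 0.90). *Tbx4*, a factor of the allantois and limb, had -1.22 ± 0.55 at day 8 and 0.70 ± 0.87 at day 4. *Tbx2* had -0.47 ± 0.31 and -0.96 ± 0.86, and *Tbx1* had -0.13 ± 0.51 and 0.07 ± 0.46, for day 8 and day 4.

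**Figure D5:**
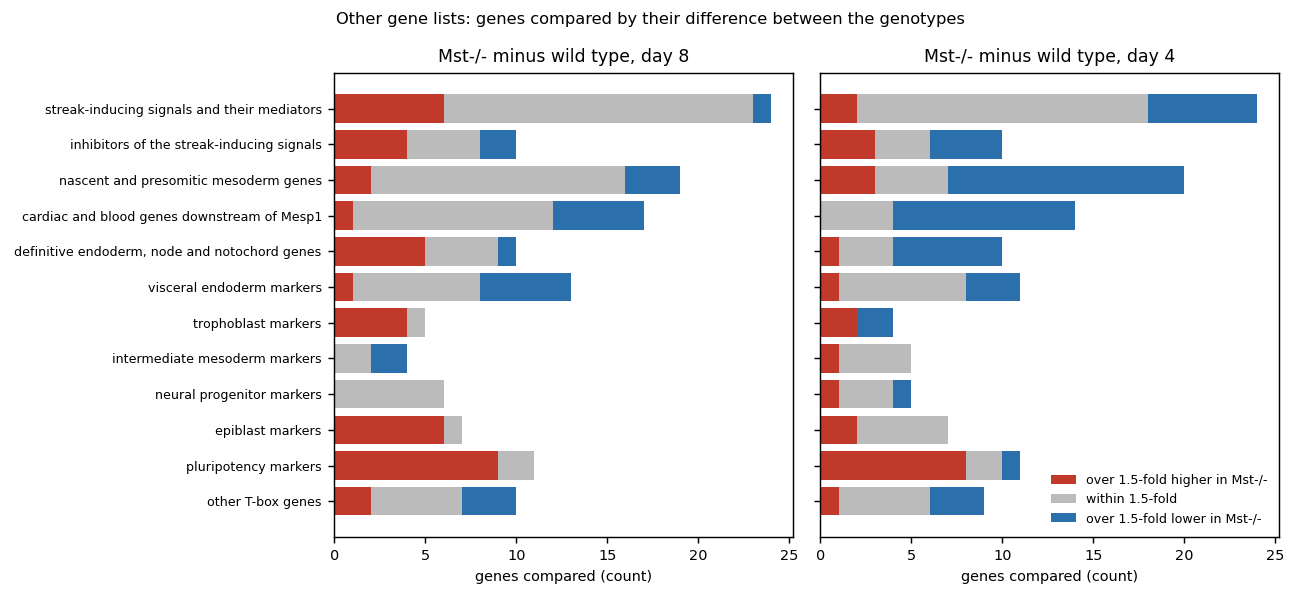
Genes compared in each list (count, x axis) at day 8 (left) and day 4 (right), split into those over 1.5-fold higher in *Mst-/-* EBs (red), within 1.5-fold (grey) and over 1.5-fold lower (blue). Pluripotency markers are mostly red on both days, with 9 of 11 at day 8 and 8 of 11 at day 4, while nascent mesoderm genes are mostly blue at day 4 only.

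Several members are also used by other cells of an EB, and markers of those cells moved too. Among 11 pluripotency markers, 9 passed 1.5-fold toward *Mst-/-* EBs at day 8, with none the other way, and 8 did so at day 4, with *Tbx3* the other way. Their mean signal was 10.02 in *Mst-/-* EBs and 8.82 in wild type EBs at day 8, and 10.30 and 8.84 in *Mst-/-* and wild type EBs at day 4. *Pou5f1* had 1.92 ± 0.22 and 1.05 ± 0.20 and *Nanog* had 1.89 ± 0.68 and 1.61 ± 0.29, for day 8 and day 4. *Sox2* had 0.84 ± 0.25 and 2.09 ± 0.44, and *Esrrb* had 1.60 ± 0.83 and 2.65 ± 1.13. Of 7 epiblast markers, 6 passed 1.5-fold toward *Mst-/-* EBs at day 8 and 2 did so at day 4, with none the other way. Their mean signal was 9.86 in *Mst-/-* EBs and 8.48 in wild type EBs at day 8, and 10.97 and 10.26 in *Mst-/-* and wild type EBs at day 4. *Fgf5* had 2.05 ± 1.15, *Dnmt3b* 1.89 ± 0.32, *Otx2* 1.61 ± 0.56 and *Pou3f1* 0.84 ± 0.40 at day 8. The 7 probe sets of *Pou3f1* ran from -0.44 to 0.84, so its difference of medians lay at their edge. Of them 4 were higher, 3 were lower and 1 passed 1.5-fold. No marker of either list was below background on all 4 arrays. Their part in the day 8 differences of *T*, *Mixl1*, *Eomes* and *Lhx1* was not tested.

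Visceral endoderm also uses *Eomes*, *Lhx1*, *Gsc* and *Foxa2*. Of 13 of its markers 1 was higher and 5 were lower in *Mst-/-* EBs at day 8, with a mean signal of 10.33 in *Mst-/-* EBs and 10.77 in wild type EBs. The higher one was *Sox17*, which is also in the list of definitive endoderm, node and notochord genes. At day 4, 1 of 11 was higher and 3 were lower, with means of 8.20 and 8.48 in *Mst-/-* and wild type EBs. *Ttr* had -0.23 ± 0.19 and *Hnf4a* 0.17 ± 0.25 at day 8, *Amn* had 0.28 ± 0.41, and *Afp* was lower with -1.95 ± 0.50. The list does not separate regions of visceral endoderm. The part of visceral endoderm in the results of *Eomes*, *Lhx1*, *Gsc* and *Foxa2* was not tested. The defining trophoblast marker *Elf5*, relevant to *Eomes*, was below background on all 4 arrays. Other trophoblast markers were compared for 5 genes at day 8, and 4 of them passed 1.5-fold toward *Mst-/-* EBs with none the other way, among them *Tfap2c* (1.53 ± 0.34) and *Cdx2* (0.80 ± 0.47), with a mean signal of 8.02 in *Mst-/-* EBs and 7.12 in wild type EBs over the list. At day 4, 2 of 4 were higher and 2 lower, with means of 6.92 and 7.18 in *Mst-/-* and wild type EBs. Their part in the result of *Eomes* was not tested.

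*Lhx1* is also a gene of intermediate mesoderm. Of the markers of that tissue 4 were compared at day 8, of which none was higher and 2 were lower in *Mst-/-* EBs, *Osr1* (-0.83 ± 0.47) and *Wt1* (-1.10 ± 0.89). The mean signal was 7.59 in *Mst-/-* EBs and 8.00 in wild type EBs. At day 4, 1 of 5 was higher and none was lower, and *Pax2* and *Pax8* lay within 1.5-fold on both days. Neural progenitor markers, set beside *Tbx6*, had none of 6 past 1.5-fold at day 8, and 1 of 5 higher and 1 lower at day 4. *Sox1* had 0.12 ± 0.30 at day 8 and -0.20 ± 0.23 at day 4, *Nes* had -0.25 ± 0.34 and 0.76 ± 0.39, and *Pax6* was below background on all 4 arrays.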

How the data were processed

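Affymetrix mouse exon 1.0 ST arrays measured RNA of *Mst-/-* and wild type EBs at days 8 and 4, with 1 array for each of the 4 conditions. The deposited table gives a log2 signal for each of 229581 probe sets. Affymetrix Expression Console appears in the submitters' notes with no version, and Partek and Genespring in the study's methods. The way the authors normalized these log2 signals was not given in the sources used here. After sorting, no 2 arrays were more than 0.17 apart at any rank, and no further scaling was applied, so a change shared by most genes would not be seen.

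Only the 209279 probe sets annotated with 1 symbol were used, and 4446 with several and 15856 without any were left out. Symbols were brought to RefSeq GRCm38.p6, where 14190 of 16380 were current, 2145 were synonyms and 45 were kept as written. Genes were summarised by the median of their probe sets, of which the median gene had 11. Above background lay 11378 to 11771 genes per array.

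Members and gene lists were chosen with earlier results of these data known. All members are named, and from each other list the first 4 genes by role that were on the array. A gene in several lists is given under 1 of them. *Stk4* is named to check the deletion of Mst1. The 3 genes nearest to each member in profile are named too, from genes of at least 3 probe sets and above background on an array. Sequences and gene order are from RefSeq GRCm38.p6. Alternatives, each changed on its own, were median centring of the arrays, quantile normalization, the mean over probe sets, the brightest probe set, the median over probe sets above background on at least 1 array, no filter on background, a filter at the 99th percentile, values raised to background, and a threshold of 2-fold. The computation was tested on simulated arrays. Scripts ran in Python 3.11.15 (numpy 2.4.6; pandas 2.3.3; matplotlib 3.10.9 for plots).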

Additional observations from a re-analysis of the deposited data

Results flagged for a closer look

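The sign of the genotype difference was opposite on the 2 days for 6 members, higher in *Mst-/-* EBs at day 8 and lower at day 4. This counts signs without a threshold. No share of all genes with opposite signs is given, so the count cannot be set against one. Of these members, *Lhx1*, *Mixl1* and *T* passed 1.5-fold on both days. The day 8 difference minus the day 4 difference was 4.66 for *Lhx1* from the measured signals (at least 4.48, since its wild type signal at day 8 was below background), 3.03 for *Mixl1*, 2.78 for *Eomes*, 2.29 for *T*, 1.43 for *Evx1* and 0.99 for *Gsc*. With 1 array per genotype and day the differences between the days were not tested. For *Eomes* and *Gsc* the day 4 difference, and for *Evx1* the day 8 difference, lay within 1.5-fold. The opposite sign was lost for *Gsc* with the mean over probe sets, which gave 0.02 at day 4, and for *Evx1* with the median over probe sets above background, which gave -0.01 at day 8.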

How the results depend on the processing

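Of 307 values of single members under 9 other settings, 285 moved by less than the SD over probe sets, 21 moved by more, and 1 that had passed 1.5-fold changed sign, *Tbx6* over time in wild type EBs, with 0.55 for the brightest probe set in place of -1.33. Another 3 values, all within 1.5-fold, changed sign too: *Evx1* over time in *Mst-/-* EBs (-0.15 with the brightest probe set, in place of 0.19), *Evx1* between the genotypes at day 8 and *Gsc* at day 4. Of the 307, 16 fell on the other side of 1.5-fold, mostly with the brightest probe set. That setting gave 3 members higher in *Mst-/-* EBs at day 8 in place of 6, 1 lower in place of none, and 1 member higher over time in *Mst-/-* EBs in place of none. At 2-fold, 3 members in place of 6 were lower at day 8 in *Mst-/-* EBs. The medians over members moved by less than the SD over members. Still, the brightest probe set took them to 0.19 at day 8 (from 0.87) and -0.64 at day 4 (from -1.08). Over time it gave -0.30 in *Mst-/-* EBs (from -0.67) and -1.63 in wild type EBs (from -2.80). For the difference of changes it gave 0.79 (from 1.91). The cause of these shifts was not tested. The 99th percentile background gave 1.60 at day 8, over 7 members in place of 9. No paired analysis was possible because there was 1 array per genotype and day. Signals within about 1 log2 unit of background, such as those of *Mesp1*, *Mesp2* and *Tbx6* on 3 of the arrays, limit what can be said of their order.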
